A study of Mus musculus with 4 samples.

Results

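The mitochondrial genome of mouse macrophages and the nuclear genes that copy, transcribe and process it were followed in 4 RNA libraries. The genes were taken by name from a list of symbols, by a rule that uses no measured value, and 41 of the 18256 symbols in the count files matched. Of these, 13 are the protein-coding genes of the mitochondrial genome and 28 are nuclear regulators, and 39 (12 and 27) passed a filter on low counts. ATP8 and Slirp did not pass it and are given by their counts alone. The cells were macrophages of wild-type (WT) mice, grown from bone marrow for 7 days with 20 ng/ml of macrophage colony-stimulating factor (MCSF), the cytokine that turns marrow progenitors into macrophages. From day 6, M0 macrophages (2 libraries) stayed for 24 h in 20 ng/ml MCSF with no stimulus. M1 macrophages (2 libraries) spent the same 24 h with 20 ng/ml interferon-gamma (IFN-γ) and 100 ng/ml bacterial lipopolysaccharide (LPS). The labels give neither age nor sex of the mice, and do not say whether the M1 medium also held MCSF.

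Mitochondrial DNA is a small circle held in many copies per cell, which encodes subunits of the respiratory chain and of ATP synthase along with the ribosomal and transfer RNAs needed to translate them. The RNA polymerase Polrmt, with Tfam and Tfb2m, reads both strands into long precursors, from which RNase P and Elac2 cut the transfer RNAs and so release the messenger RNAs between them. These are then tailed by Mtpap, stabilised by Lrpprc with Slirp, and degraded by Pnpt1 with the helicase Supv3l1. In macrophages, LPS is known to lower respiration and to raise glycolysis, and Cmpk2, a mitochondrial nucleotide kinase, is known for supplying the synthesis of new mitochondrial DNA after LPS.

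Library totals were 15921466 to 18987705 counts, and 3 counts, taken as the lowest level told apart from 0, stand for 0.144 to 0.185 CPM (counts scaled to a common library size with TMM factors). Of 8 macrophage markers all were expressed, with a summed level of 20682 to 22989 CPM in M0 and 29207 to 29692 CPM in M1. In M1 4 of the 8 were higher and 2 lower (Cd68 -0.86, Mertk -1.55), and Lyz2, the largest part of the sum, did not pass (0.22, adjusted p = 0.0814). Of 9 tested neutrophil markers 7 were lower and 1 higher in M1, and the summed level of all 10 was 258 and 273 CPM in M0 against 161 and 121 CPM in M1. Ly6g and Retnlg had no count in M1. The 5 stromal markers summed to 678 to 698 CPM in M0 and 448 to 503 CPM in M1 (2 higher and 2 lower of 4 tested). Markers counted as higher or lower are calls at the threshold given below. Of all tested genes 24.2% were called higher and 24.0% lower. Marker sums of T and NK cells, of B cells and of erythroid cells stayed under 5.08 CPM apart from B cells in M0 replicate 1, which reached that value. Whether these other cells have a part in the results below was not tested. Whether the replicates are separate mice or cultures is not stated, and p-values then describe only the spread between these libraries, which may be technical.

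What can be counted for a mitochondrial gene may depend on its sequence, because part of the mitochondrial genome also stands in chromosome 1. Whether this set the counts of any gene here was not tested. In GENCODE vM21, on the GRCm38 assembly that mm10 names, a cluster of 7 unprocessed pseudogenes on the minus strand between 24611535 and 24616197 copies ND4, ND4L, ND3, COX3, ATP6, COX2 and the end of COX1. Over their aligned bases 5 of the 7 are identical to the mitochondrial gene, namely those of ND4 (first 876 bases), ND4L (294), COX3 (783), ATP6 (678) and COX2 (681). The first 60 bases of ATP6 and ND4L with their copies Gm10925 and Gm10222 are shown because these copies have count rows of their own, those of ND3 because 1 base tells it from its copy Gm28438 (T3C, counted from the first base of the gene), and 60 bases of COX1 because the 6 differences from Gm29216 all lie in the first 13 aligned bases (T1056A, C1057T, A1059G, A1060G, C1062A and A1066T). Sequences run 5′ to 3′ and capitals mark the differences.
ATP6 (chrM:7927-7986, plus strand): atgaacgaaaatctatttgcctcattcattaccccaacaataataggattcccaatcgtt
Gm10925 (chr1:24614592-24614651, minus strand): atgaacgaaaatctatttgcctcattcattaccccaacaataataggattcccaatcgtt
ND4L (chrM:9877-9936, plus strand): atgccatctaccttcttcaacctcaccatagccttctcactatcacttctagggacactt
Gm10222 (chr1:24612641-24612700, minus strand): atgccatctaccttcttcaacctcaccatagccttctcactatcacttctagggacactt
ND3 (chrM:9459-9518, plus strand): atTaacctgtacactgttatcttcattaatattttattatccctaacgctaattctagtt
Gm28438 (chr1:24613060-24613119, minus strand): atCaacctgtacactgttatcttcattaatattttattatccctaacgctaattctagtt
COX1 (chrM:6381-6440, plus strand): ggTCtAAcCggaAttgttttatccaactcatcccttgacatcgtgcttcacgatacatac
Gm29216 (chr1:24616138-24616197, minus strand): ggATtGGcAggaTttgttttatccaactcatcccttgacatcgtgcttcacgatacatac

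The mitochondrial genes run from ND1 (chromosome MT, 2751 to 3707) to CYTB (14145 to 15288), and some neighbours overlap. ATP8 and ATP6 share 43 bases and ND4L and ND4 share 7, and the 14 shared bases of ND5 and ND6 lie on opposite strands. The junctions of the first 2 pairs are printed with the shared bases in capitals and 20 bases on each side. How reads that fit several places or several genes were counted is not given in the sources used here, nor is the strand setting.
ATP8 and ATP6 (chrM:7907-7989, plus strand): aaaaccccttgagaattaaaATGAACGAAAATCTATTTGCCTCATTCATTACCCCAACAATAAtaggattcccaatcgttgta
ND4L and ND4 (chrM:10147-10193, plus strand): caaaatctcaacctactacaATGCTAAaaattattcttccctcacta

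Levels per length are given beside this shared sequence. The share of a gene's 50-base windows that also occur in a transcript of another annotated gene was 98% for ND3, 98.8% for ND4L, 99.5% for ATP6, 99.9% for COX3 and 100.0% for COX2. These 5 genes had mean M0 levels of 13.8 (ND4L) to 150.1 (COX3) CPM per kb. In ND1, ND6, CYTB and ATP8 no window was shared, in ND5 7.61% and in ND2 8.19%. The M0 levels of these genes other than ATP8 were 1269 (ND5) to 2678 (ND6) CPM per kb, while ATP8, also at 0% shared, had the lowest level of the 13. It was listed at 7 and 5 counts in M0 and 6 and 13 in M1, or 1.53 CPM per kb in M0 (43 of its 204 bases lie in ATP6). COX1 (51.1% shared) had 6078 and ND4 (62.2% shared) 968 CPM per kb. Shared windows were not confined to the cluster on chromosome 1. The gene sharing the most windows was Gm13339 on chromosome 2 for ND2 and Gm4076 on chromosome 13 for ND5. No annotated transcript fills the 233 bases of chromosome 1 between the copies of ATP6 and COX2, the interval that matches the place of ATP8 in the mitochondrial order, so a copy of ATP8 could not be looked for here. The low counts of ATP6, ATP8, COX2, COX3, ND3 and ND4L are not read as low abundance here. ND6, the single messenger RNA of the opposite strand, stood at 2678 CPM per kb in M0, next below COX1, and without a strand setting its reads cannot be told apart from RNA of the other strand over the same bases.

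**Figure D1:**
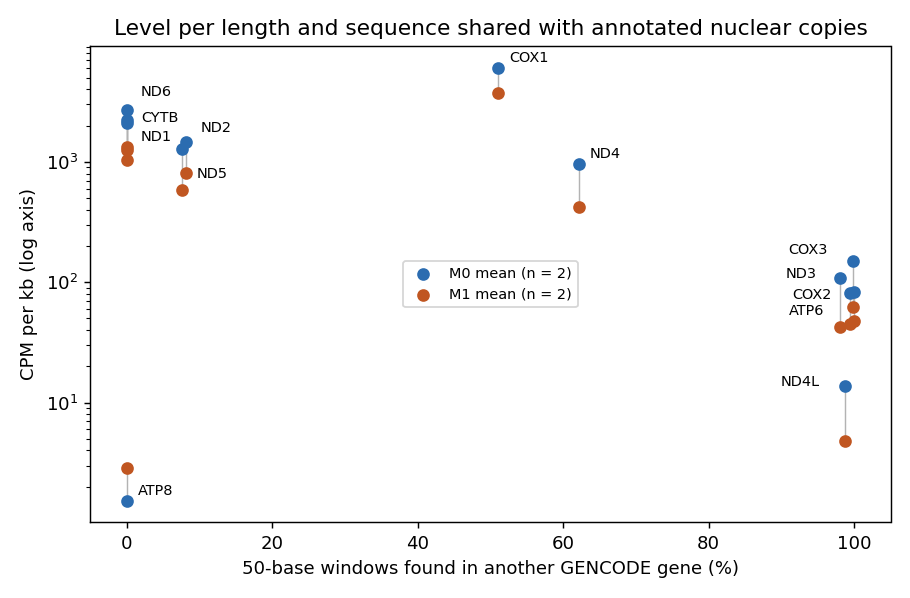
Mean level per length (CPM per kb, log axis) of the 13 mitochondrially encoded genes against the share of their 50-base windows found in another GENCODE gene, for M0 and M1 (means of 2 libraries, joined by a line). The 5 genes with nearly all windows shared lie at 4.76 to 150.1 CPM per kb, all other genes but ATP8 at 418 or more.

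All 12 tested mitochondrially encoded genes fell in M1, with a median log2 fold change of -1.10 and a range of -1.54 (ND4L) to -0.65 (ND1). Over all tested genes, 24.0% were called lower and the median was -0.016 (calls here and below are adjusted p under 0.05 in edgeR's quasi-likelihood test with Benjamini-Hochberg adjustment over 12966 genes). In all 12 both M1 libraries lay below both M0 libraries, a separation in either direction that 74.9% of all tested genes showed. In COX2, COX3, ATP6, ND4L and ND3, 98% or more of the 50-base windows also occur in another annotated gene. Reads in these rows therefore cannot be assigned to the mitochondrial genome alone. Together the 13 genes held 2.166% (exact binomial 95% interval 2.159 to 2.172) and 2.361% (2.353 to 2.368) of the counts in M0 replicates 1 and 2. In M1 replicates 1 and 2 they held 1.094% (1.089 to 1.099) and 1.005% (1.001 to 1.01), and the mean M1 share was 0.464 of the mean M0 share. These intervals cover counting error only. The shares are of raw library totals, while the fold changes use TMM factors. With TMM factors the 13 genes summed to 19716 and 21779 CPM in M0 and to 12012 and 10904 CPM in M1, a smaller fall than that of the shares. In bulk RNA, fewer transcripts per cell and fewer cells that carry them cannot be told apart, and a share also moves with all other RNA in the library.

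Among the genes of complex I, the NADH dehydrogenase that starts the chain, ND1 had 1767 and 2231 CPM in M0 replicates 1 and 2 and 1438 and 1109 CPM in M1 replicates 1 and 2. The M1 values were lower in both libraries, with a log2 fold change of -0.65 (95% interval -0.96 to -0.34, adjusted p = 0.00288). ND2 had 1427 and 1591 CPM in M0 and 936 and 745 CPM in M1 (-0.84, adjusted p = 0.000154). ND4 and ND5, whose products are proton-pumping subunits like that of ND2, are described next. ND4 had 1187 and 1479.8 CPM in M0 and 653 and 500.4 CPM in M1 (-1.21, adjusted p = 3.50e-05). For ND5 the values were 2365 and 2266 CPM in M0 and 1025 and 1111 CPM in M1 (-1.12, 95% interval -1.32 to -0.91, adjusted p = 2.32e-06). ND6 on the other strand had 1321 and 1459 CPM in M0 and 759 and 550.4 CPM in M1 (-1.09, adjusted p = 6.86e-05). The M1 libraries of ND6 differed by more than those of ND5, and still neither reached the lower M0 value. ND3 fell from 37.9 ± 1.2 to 14.9 ± 3.05 CPM (SD, n = 2 libraries a group; -1.35). ND4L, at 101 and 58 counts in M0 and 15 and 31 in M1, had a log2 fold change of -1.54 with the widest interval of the 12 (-2.55 to -0.52, adjusted p = 0.0172).

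CYTB, the only mitochondrially encoded subunit of complex III, had 2307 and 2769.7 CPM in M0 replicates 1 and 2 and 1332 and 1019.5 CPM in M1 replicates 1 and 2. It fell by 1.11 on the log2 scale (95% interval -1.41 to -0.81, adjusted p = 4.82e-05). COX1, the catalytic subunit of cytochrome c oxidase, had the highest counts of the 13, with 9086 and 9694 CPM in M0 and 5728 and 5751 CPM in M1. The M1 libraries of COX1 nearly coincided, and the log2 fold change was -0.71 (95% interval -0.91 to -0.51, adjusted p = 5.97e-05). Of the other oxidase subunits, COX2 fell from 57.3 ± 13.4 CPM in M0 to 32.8 ± 6.32 CPM in M1 (-0.80, adjusted p = 0.00349). COX3 had 114 and 121 CPM in M0 and 51.7 and 45.9 CPM in M1 (-1.27, adjusted p = 3.43e-06). ATP6, a subunit of the proton channel of ATP synthase, had 50.1 and 59.9 CPM in M0 and 33.4 and 27.8 CPM in M1 (-0.84, adjusted p = 0.000571). The row of its nuclear copy Gm10925, identical over 678 bases and chosen after its values were seen, held more counts than ATP6 itself, at 85.1 and 88.4 CPM in M0 and 53.2 and 50.6 CPM in M1. It had a log2 fold change of -0.74 (adjusted p = 0.000191), and Gm10222, the copy of ND4L, had 3.88 and 4.11 CPM in M0 and 2.28 and 2.15 CPM in M1 (-0.85, adjusted p = 0.0738). Reads of a gene and of an identical copy cannot be told apart. With both rows added to ATP6 and ND4L all 12 genes were again called lower. The calls depended on single libraries for 4 of the 12 genes. They were lost without M0 replicate 1 for ND4L (adjusted p = 0.208), without M0 replicate 2 for ND1, COX2, ATP6 and ND4L (adjusted p = 0.0521 to 0.143) and without M1 replicate 1 for ND4L (adjusted p = 0.0764). With M0 replicate 2 left out, ND1 had a log2 fold change of -0.47 and COX2 of -0.54.

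**Figure D2:**
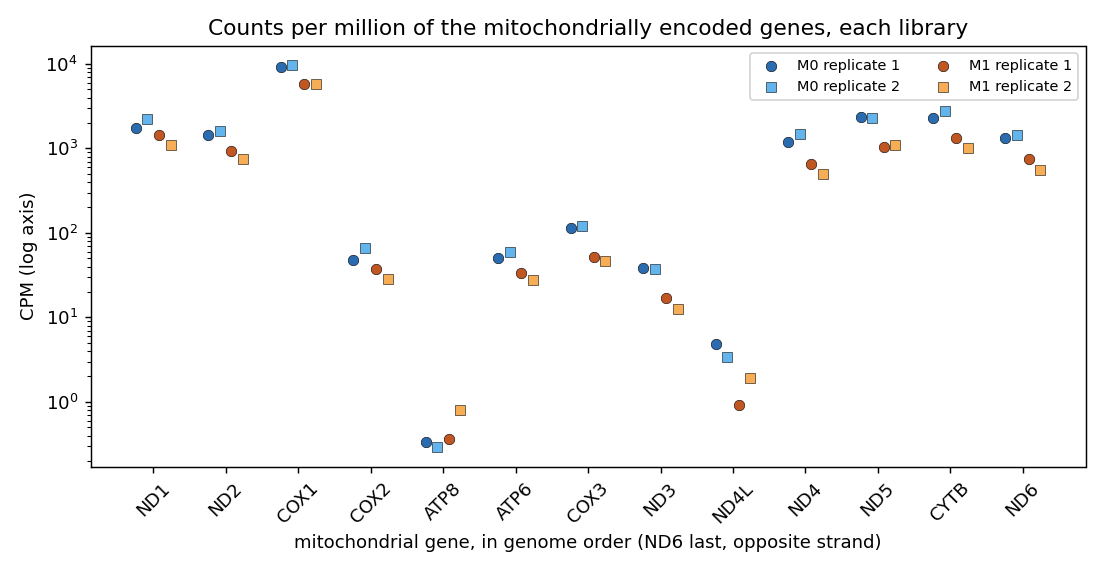
CPM (log axis) of each mitochondrially encoded gene in each library, in the order of the genes on the mitochondrial genome with ND6 last. Both M1 libraries lie below both M0 libraries for every gene but ATP8, whose 5 to 13 counts were not tested.

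The fitted fold changes were also read in the order of the genes. From ND1 on, the 5 tested genes ND1, ND2, COX1, COX2 and ATP6 had log2 fold changes of -0.84 to -0.65, and the 6 that follow (COX3, ND3, ND4L, ND4, ND5 and CYTB) -1.54 to -1.11. This division was chosen after the values were seen and is given with no test. Between single libraries the ranges of the first 5 and the last 6 genes were apart in 3 of the 4 pairs of an M1 and an M0 library. In the remaining pair, M1 replicate 2 minus M0 replicate 2, they overlapped, at -1.24 to -0.75 and -1.56 to -0.82. Among genes with few or partial copies, the mean log2 CPM of ND4, ND5 and CYTB minus that of ND1, ND2 and COX1 was -0.6079 and -0.6299 in M0 replicates 1 and 2 and -1.038 and -1.022 in M1. Here the replicates of each group lay close together and the groups apart, but these genes are part of the same division chosen after the values were seen. Over all 11 genes the same difference (last 6 minus first 5) was -1.298 and -1.561 in M0 and -2.058 and -1.819 in M1. There the gap between the groups was about as wide as the spread between replicates. Within the mitochondrial counts, COX1 took 46.08% and 44.51% in M0 and 47.69% and 52.74% in M1. CYTB took 11.7% and 12.72% in M0 and 11.09% and 9.351% in M1, and ND4 6.019% and 6.795% against 5.436% and 4.59%. ND1 shares overlapped between groups (8.962% to 10.25% in M0 and 10.17% to 11.97% in M1), as did those of ND2. The ND5 share was 10.4% to 11.99% in M0 and 8.536% to 10.19% in M1, so the M1 values were lower by a small margin.

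**Figure D3:**
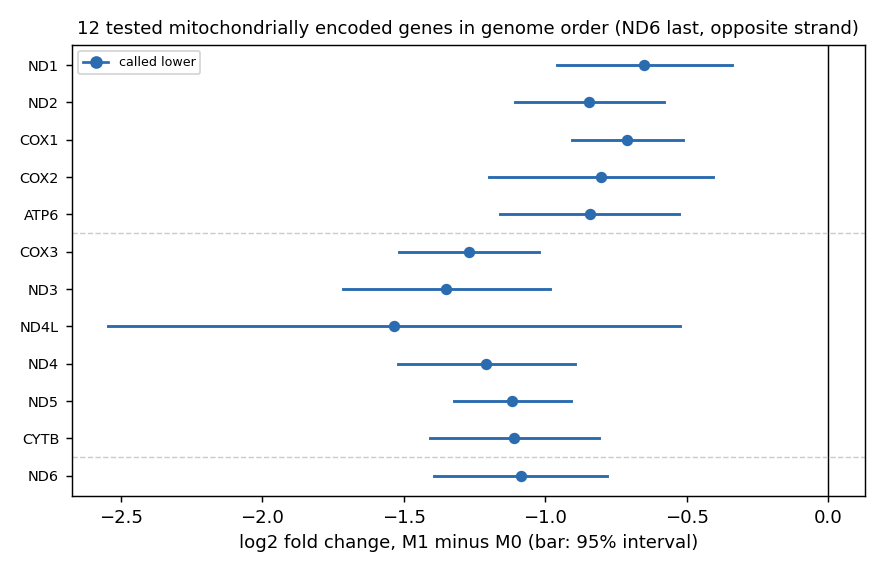
Fitted log2 fold changes (M1 minus M0, x axis) with 95% intervals for the 12 tested mitochondrially encoded genes, in genome order. The first dashed line parts ATP6 from COX3, and the second sets off ND6. All intervals lie below 0, the shallowest being ND1 at -0.65.

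The nuclear regulators did not move together. Among 27 tested genes 9 rose and 3 fell, while 15 missed the threshold, against 24.2% of all tested genes called higher and 24.0% called lower. Their median log2 fold change was 0.17, and 18 of 27 had no overlap between groups (all tested genes 74.9%). Their shares called higher and lower were 33.3% and 11.1%, and 48.2% of all tested genes were called in either direction. When libraries were scaled by their totals, which lowers the median of all genes by 0.252, 5 nuclear regulators were higher and 5 lower: the calls of Tefm, Fastk, Rexo2 and Ppargc1b were lost, and Tfb2m and Fastkd2 were called lower. With upper-quartile factors the calls of Tefm, Fastk and Ppargc1b were lost and Tfb2m was called lower, and with DESeq2 those of Tefm, Lrpprc and Ppargc1b were lost. Only the calls of Cmpk2, Pnpt1 and Polg held under every alternative tried.

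Of the genes that transcribe mitochondrial DNA, Tfam, which packs the DNA and starts its transcription, had 41.9 and 48.2 CPM in M0 and 48 and 47 CPM in M1. The groups overlapped, and the log2 fold change of 0.077 (95% interval -0.19 to 0.35) did not pass (adjusted p = 0.636). Polrmt, the RNA polymerase, had 30.4 and 32 CPM in M0 and 26.6 and 33 CPM in M1, with overlapping groups (-0.063, interval -0.39 to 0.26, adjusted p = 0.752). Tfb2m, which opens the promoter with Tfam, had 19.4 and 21.7 CPM in M0 and 16.7 and 14.9 CPM in M1 and did not pass (-0.38, adjusted p = 0.0778). Its 50-base windows occur to 31.9% in other genes, of which the pseudogene Gm1818 shares the most, so its count is uncertain. Tfb1m, the methyltransferase that modifies mitochondrial ribosomal RNA, rose from 5.29 ± 0.926 to 9.84 ± 0.083 CPM (0.89, adjusted p = 0.0107). Tefm, the elongation factor of the polymerase, rose from 10.3 ± 0.12 to 15.1 ± 1.31 CPM (0.55, adjusted p = 0.0301). The call of Tfb1m was lost without M0 replicate 2 (adjusted p = 0.0964), and that of Tefm without M0 replicate 1, M0 replicate 2 or M1 replicate 1 (adjusted p = 0.122 to 0.142).

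Of the genes that copy mitochondrial DNA, Polg, the catalytic subunit of its polymerase (chromosome 7, 79446231 to 79467911 in GRCm38.p6), had 93.2 and 97.3 CPM in M0 replicates 1 and 2 and 56.2 and 59.2 CPM in M1 replicates 1 and 2. Both M1 libraries were lower, with a log2 fold change of -0.72 (95% interval -0.96 to -0.49, adjusted p = 0.000204), the largest fall among the nuclear regulators. Annotated exons of Fanci on the other strand cover 8.57% of its exonic bases. Its accessory subunit Polg2 had 10.6 and 12.8 CPM in M0 and 13.8 and 8.12 CPM in M1, overlapping between groups (-0.089, interval -0.66 to 0.48, adjusted p = 0.803). The helicase Twnk had 18.6 and 21.1 CPM in M0 and 20.4 and 21 CPM in M1 (0.062, interval -0.28 to 0.41, adjusted p = 0.772). Annotated exons of Mrpl43 on the other strand cover 12.6% of the exonic bases of Twnk. Ssbp1, which coats single-stranded mitochondrial DNA, had 23.9 and 25.7 CPM in M0 and 23.1 and 23.4 CPM in M1 and was lower in both M1 libraries (-0.09, interval -0.41 to 0.23, adjusted p = 0.637). Polg2, Twnk and Ssbp1 thus missed the threshold, which does not show that their levels were equal.

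Of 7 tested genes that stabilise mitochondrial RNA, 1 rose (14.3%), 1 fell (14.3%) and 5 missed the threshold. Among all tested genes 24.2% were called higher and 24.0% lower. Lrpprc, which binds and protects most mitochondrial messenger RNAs, had 167 and 153 CPM in M0 and 132 and 135 CPM in M1. The M1 values were lower in both libraries (-0.26, 95% interval -0.48 to -0.047, adjusted p = 0.0457), but the call was lost without any single library (adjusted p = 0.0832 to 0.274) and by DESeq2 (adjusted p = 0.0673). Its partner Slirp was listed at 3 and 0 counts in M0 and 1 and 2 in M1, and annotated exons of Alkbh1 and Snw1 on the other strand cover 97.8% of its exonic bases, so nothing is read from its level. Of the FASTK family, which acts on single mitochondrial RNAs, Fastk rose from 31.7 ± 4.01 to 42 ± 2.28 CPM (0.41, adjusted p = 0.0294). That call was lost without M0 replicate 1 (adjusted p = 0.233), M0 replicate 2 (0.067) and M1 replicate 1 (0.109). Fastkd1, Fastkd2 and Fastkd3 overlapped between groups, with log2 fold changes of -0.065, -0.15 and -0.02 (adjusted p = 0.728, 0.415 and 0.923). Fastkd5 (6.52 and 6.49 CPM in M0 and 9.85 and 7.69 CPM in M1) and Tbrg4, also called Fastkd4 (85.2 and 86.9 CPM in M0 and 103 and 97.3 CPM in M1), did not overlap between groups and did not pass either (0.43 and 0.22, adjusted p = 0.163 and 0.0985). Of the exonic bases of Fastkd5, 65.2% lie in Ubox5. Annotated exons of Slc4a2 on the other strand cover 26.1% of the exonic bases of Fastk.

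The genes that cut mitochondrial precursors were higher or did not pass. Elac2, the enzyme that cleaves the 3′ ends of transfer RNAs (chromosome 11, 64979030 to 65002080), had 42.3 and 44.5 CPM in M0 replicates 1 and 2 and 60.7 and 73.4 CPM in M1 replicates 1 and 2. Both M1 libraries were above M0 (0.63, 95% interval 0.35 to 0.91, adjusted p = 0.00183). Hsd17b10, a subunit of mitochondrial RNase P that is also a dehydrogenase, had 19.8 and 21.4 CPM in M0 and 29.1 and 35.9 CPM in M1 (0.66, interval 0.32 to 1.00, adjusted p = 0.0048). Trmt10c, the methyltransferase subunit of the same RNase P, had 37.6 and 32.7 CPM in M0 and 40.4 and 35.7 CPM in M1, overlapping between groups (0.11, adjusted p = 0.525). Without M0 replicate 1 the adjusted p was 0.0814 for Elac2 and 0.106 for Hsd17b10, and without M0 replicate 2 it was 0.0616 and 0.0715.

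Of the genes for tailing and turnover of mitochondrial RNA, Pnpt1, the exoribonuclease of the mitochondrial degradosome (chromosome 11, 29130129 to 29161827), had 52.2 and 47.3 CPM in M0 replicates 1 and 2 and 115 and 97.9 CPM in M1 replicates 1 and 2. It rose 2.14-fold (log2 fold change 1.10, 95% interval 0.83 to 1.36, adjusted p = 2.11e-05). Supv3l1, the helicase that works with it, had 23.1 and 29.2 CPM in M0 and 26.7 and 32.1 CPM in M1 and overlapped between groups (0.17, interval -0.19 to 0.53, adjusted p = 0.411). Rexo2, which degrades the short RNAs that remain, rose from 78.9 ± 9.83 to 106 ± 3.52 CPM (0.43, adjusted p = 0.00991, or 0.153 without M0 replicate 1). Mtpap, the poly(A) polymerase, had 36.1 and 32.9 CPM in M0 and 44.2 and 36.4 CPM in M1 and did not pass (0.22, adjusted p = 0.209). Annotated exons of Gm26865 on the other strand cover 18.5% of the exonic bases of Mtpap. At the level of single libraries, Pnpt1 was above Supv3l1 in all 4 per length, at 14.8 and 13.5 CPM per kb in M0 and 32.7 and 27.8 in M1, against 7.77 and 9.84 in M0 and 9 and 10.8 in M1.

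Cmpk2 (chromosome 12, 26469117 to 26479837) changed by more than any other regulator of the list. It had 13.7 and 18.7 CPM in M0 replicates 1 and 2 and 731 and 697 CPM in M1 replicates 1 and 2. The groups were far apart, with a log2 fold change of 5.47 (95% interval 5.14 to 5.80, adjusted p = 3.24e-10), a 44.3-fold rise. Its neighbour Rsad2, the antiviral gene that encodes viperin, lies 12664 bases away on the opposite strand and had 17.8 and 25.2 CPM in M0 and 1245 and 1139 CPM in M1 (5.80, adjusted p = 4.19e-10). The annotated exons of the neighbours do not overlap. The M0 levels of Cmpk2 and Rsad2 per length were 3.89 and 4.96 CPM per kb, and the M1 levels 171 and 275.

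The transcription factors of nuclear genes for mitochondria went different ways. Ppargc1b, a coactivator of mitochondrial biogenesis, rose from 4.56 ± 0.758 to 7.48 ± 0.127 CPM (0.72, adjusted p = 0.046), a call lost without any single library (adjusted p = 0.085 to 0.216). Its better known relative Ppargc1a had no count but 2 in M1 replicate 2, under the level told apart from 0. Nrf1, which activates respiratory genes, had 32.4 and 33.5 CPM in M0 and 37.5 and 43.4 CPM in M1, higher in both M1 libraries without passing (0.30, interval 0.0054 to 0.58, adjusted p = 0.0864). Gabpa, the DNA-binding subunit of the factor also called NRF-2, had 71.7 and 73.5 CPM in M0 and 53.7 and 55.5 CPM in M1 and fell (-0.41, interval -0.65 to -0.17, adjusted p = 0.00888). Without M0 replicate 1 and without M0 replicate 2 the adjusted p of Gabpa was 0.082 and 0.0949.

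**Figure D4:**
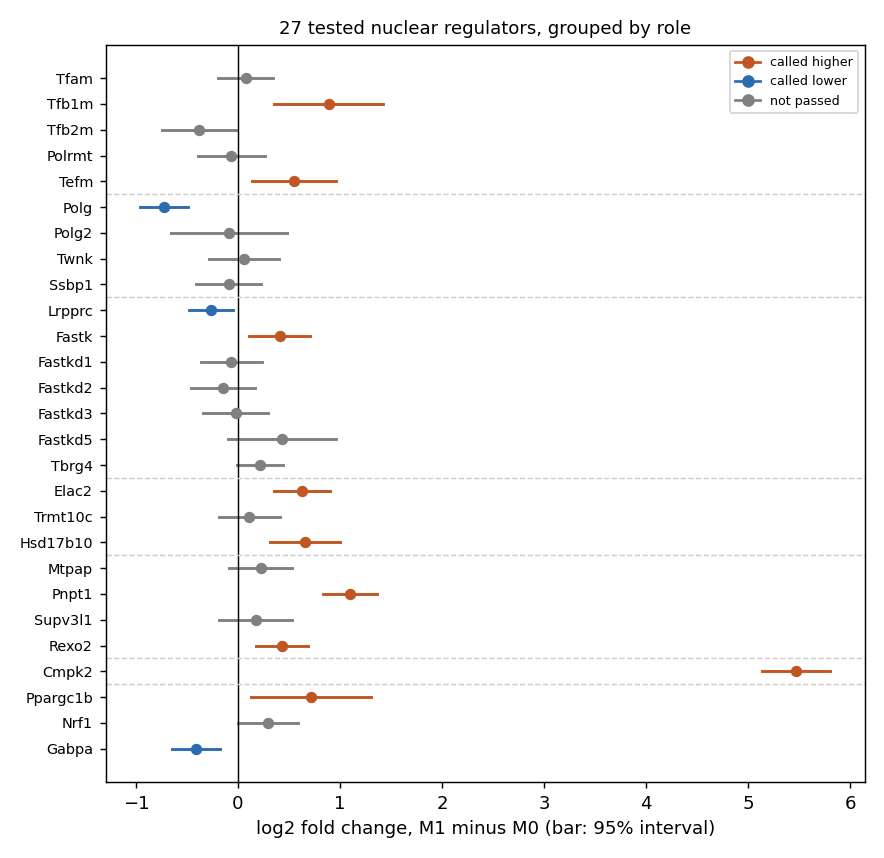
Fitted log2 fold changes (M1 minus M0) with 95% intervals for the 27 tested nuclear regulators. Dashed lines part the roles, from the top transcription, copying, stabilising, processing, tailing and turnover, the nucleotide kinase Cmpk2, and transcription factors. Cmpk2 stands at 5.47, and all others lie between -0.72 and 1.10.

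**Figure D5:**
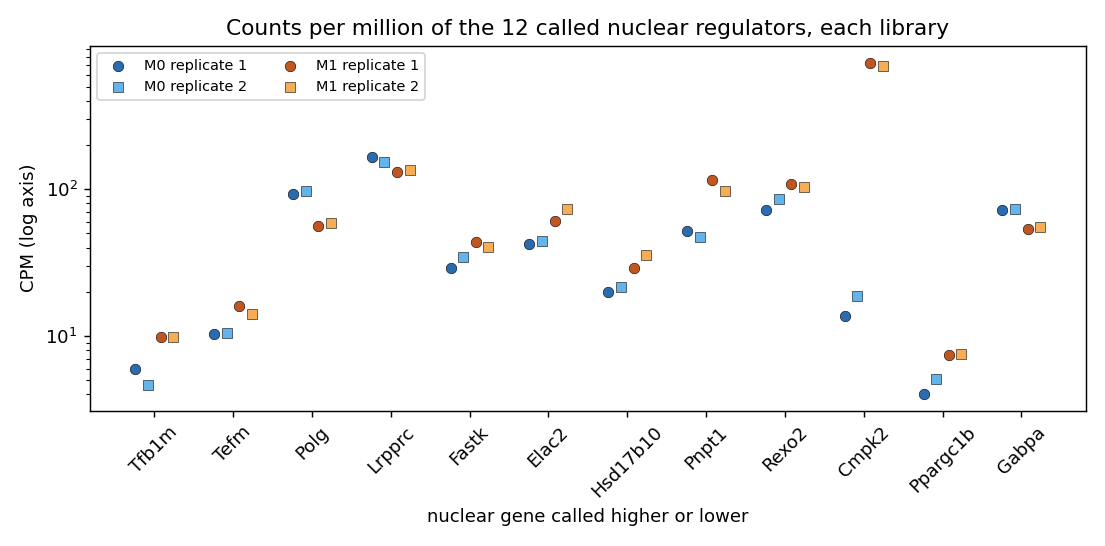
CPM (log axis) in each library of the 12 nuclear regulators called higher or lower. The libraries of M0 and M1 do not overlap for any of them, but the genes were chosen by their call in the same libraries. Of all tested genes 74.9% do not overlap. Cmpk2 goes from 13.7 and 18.7 CPM to 731 and 697 CPM.

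Promoters of the nuclear regulators were searched for short motifs of Nrf1 (GCGCANGCG), of GABP and other ETS factors (ACTTCCG) and of interferon-stimulated genes (GAAANNGAA), on both strands, in RefSeq windows of 250 bases before to 50 after the start of transcription. Windows were found for 26 of the 28. The ETS letters were present in 8 genes (Tfam, Tfb2m, Tefm, Polg, Twnk, Ssbp1, Fastkd5 and Trmt10c), the Nrf1 letters in 5 (Tfb2m, Polrmt, Fastkd3, Supv3l1 and Rexo2) and the interferon letters in 2 (Fastkd1 and Hsd17b10). Of all 32851 windows, 6.42%, 6.25% and 8.56% held the ETS, Nrf1 and interferon letters, and of the 12704 windows of tested genes 12.9%, 13% and 7.47%. A match describes letters only. The windows of Cmpk2 and Polg are shown as those of the largest rise and the largest fall, and that of Polrmt for its pair of overlapping Nrf1 matches, with matches in capitals (RefSeq, GRCm38.p6). The window of Cmpk2 holds none of these letters. The RefSeq span of Cmpk2 begins at 26469117, inside the window, so fewer than 250 bases before that end were searched. The window of Polg lies wholly inside its RefSeq span, which ends at 79467911, so the bases before that end were not searched. Windows of some other regulators are also placed on a start inside the gene span.
Cmpk2 (chr12:26468965-26469264, plus strand): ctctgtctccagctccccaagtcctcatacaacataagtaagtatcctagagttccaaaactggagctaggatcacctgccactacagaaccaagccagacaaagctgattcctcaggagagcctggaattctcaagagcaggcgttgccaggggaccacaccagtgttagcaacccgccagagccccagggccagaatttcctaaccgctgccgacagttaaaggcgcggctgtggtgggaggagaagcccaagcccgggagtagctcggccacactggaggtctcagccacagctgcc
Polg (chr7:79466224-79466523, minus strand): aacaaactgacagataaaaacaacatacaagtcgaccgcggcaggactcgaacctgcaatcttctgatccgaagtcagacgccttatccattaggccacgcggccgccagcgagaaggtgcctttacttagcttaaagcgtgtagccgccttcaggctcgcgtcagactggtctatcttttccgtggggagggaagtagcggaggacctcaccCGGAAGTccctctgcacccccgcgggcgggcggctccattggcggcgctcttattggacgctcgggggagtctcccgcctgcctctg
Polrmt (chr10:79746532-79746831, minus strand): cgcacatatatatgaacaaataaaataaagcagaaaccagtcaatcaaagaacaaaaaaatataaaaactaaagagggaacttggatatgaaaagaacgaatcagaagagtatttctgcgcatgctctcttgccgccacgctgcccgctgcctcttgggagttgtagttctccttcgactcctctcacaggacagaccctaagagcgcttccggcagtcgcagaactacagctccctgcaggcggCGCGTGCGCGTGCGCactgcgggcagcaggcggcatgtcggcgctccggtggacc

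Other genes of mitochondrial DNA upkeep and gene expression were taken from lists of 102 symbols, of which 99 were tested. Of these 20 rose and 16 fell (20.2% and 16.2%, against 24.2% and 24.0% of all genes), with a median of 0.089. With library totals 5 rose and 26 fell. Of genes for the upkeep of mitochondrial DNA, 3 of the 24 tested were higher and 5 lower in M1, with 16 short of the threshold (median log2 fold change 0.078). Samhd1, which breaks down deoxynucleotides, had 231 and 253 CPM in M0 and 1009.6 and 1068 CPM in M1 (2.10, adjusted p = 1.85e-08). Slc25a33, a pyrimidine nucleotide carrier of the inner membrane, rose from 10.4 ± 0.914 to 19.8 ± 1.53 CPM (0.93). Mpv17, an inner membrane protein needed to keep mitochondrial DNA, and the carrier Slc25a36 fell (-0.75 and -0.57).

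Of genes that process or modify mitochondrial RNA, 6 of the 31 tested (19.4%) were higher and 3 (9.68%) lower in M1, with 22 short of the threshold (median log2 fold change 0.23). Among all tested genes 24.2% were called higher and 24.0% lower, here and for the lists that follow. Lactb2, a mitochondrial endoribonuclease, fell from 64.2 ± 2.85 to 36.1 ± 2.15 CPM (-0.83, adjusted p = 0.000161), as did Mettl17 (-0.54), which acts in assembly of the mitochondrial ribosome. The RNA-modifying enzyme genes Pus1 and Cdk5rap1 rose (0.54 and 0.53), and annotated genes on the other strand cover 30.1% of the exonic bases of Pus1. Of mitochondrial translation factors, 3 of the 15 tested (20%) were higher and 1 (6.67%) lower in M1, with 11 short of the threshold (median log2 fold change 0.089). Gfm1, an elongation factor, rose from 52.3 ± 1.09 to 72.4 ± 1.67 CPM (0.47), with Taco1 (0.64), an activator of COX1 translation, and Mrpl58 (0.49), while the GTPase gene Guf1 fell (-0.45). Of mitochondrial aminoacyl-tRNA synthetases, 3 of the 17 tested (17.6%) were higher and 3 (17.6%) lower in M1, with 11 short of the threshold (median log2 fold change -0.15). Rars2, the arginyl enzyme, rose from 13.1 ± 0.0633 to 25 ± 2.21 CPM (0.93, adjusted p = 0.000657), with Ears2 (0.63) and Lars2 (0.56), and Mars2 and Hars2 fell (-0.66 and -0.42). With M0 replicate 1 left out, Mars2 had a log2 fold change of -0.38. For Lars2 the M1 libraries differed widely (205 and 233 CPM in M0 and 259 and 387 CPM in M1), and without M1 replicate 2 its log2 fold change was 0.26.

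Of regulators of mitochondrial biogenesis, 5 of the 12 tested (41.7%) were higher and 4 (33.3%) lower in M1, with 3 short of the threshold (median log2 fold change -0.01). Among all tested genes 24.2% were called higher and 24.0% lower. Perm1, a partner of the PGC-1 coactivators known from muscle, had 4.55 and 3.01 CPM in M0 and 18.3 and 15.9 CPM in M1 (2.16, adjusted p = 2.76e-05). Esrra, the oestrogen-related receptor that works with PGC-1, had 24.7 and 25.1 CPM in M0 and 59.7 and 50.7 CPM in M1 (1.15, adjusted p = 3.04e-05). Tfeb, a regulator of lysosomal and mitochondrial genes, had 49.5 and 51 CPM in M0 and 22.8 and 20.7 CPM in M1 (-1.21, adjusted p = 1.74e-05), and the deacetylase gene Sirt1 had 50.9 and 47.5 CPM in M0 and 22.9 and 25.4 CPM in M1 (-1.03, adjusted p = 6.74e-05). For all 4 the M0 and M1 libraries lay apart, which the rule for naming genes of these lists required. Of the 21 genes named from the wider set, 8 kept their call under every alternative (Samhd1, Slc25a33, Lactb2, Rars2, Perm1, Tfeb, Esrra and Sirt1). With library totals the calls of Pus1, Cdk5rap1, Taco1, Mrpl58, Gfm1, Ears2 and Lars2 were lost. Calls of the others were lost without M0 replicate 1 for Slc25a36, Mettl17, Pus1, Cdk5rap1, Taco1, Mrpl58, Gfm1, Guf1, Mars2, Ears2, Lars2 and Hars2 (adjusted p = 0.0637 to 0.265). They were also lost without M0 replicate 2 for Mpv17, Mettl17, Pus1, Cdk5rap1, Taco1, Mrpl58, Gfm1, Guf1, Ears2, Lars2 and Hars2 (adjusted p = 0.0511 to 0.269), without M1 replicate 1 for Pus1, Cdk5rap1, Mrpl58, Mars2, Ears2 and Hars2 (adjusted p = 0.0546 to 0.138), and without M1 replicate 2 for Mettl17, Cdk5rap1, Taco1, Mrpl58 and Lars2 (adjusted p = 0.0503 to 0.23).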

How the data were processed

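RNA of 4 macrophage libraries was analysed. Per the labels' protocols, DNA was digested and ribosomal RNA removed before library preparation. The authors deposited raw counts for each gene symbol. The submitters' processing notes name featureCounts, Subread 2.0.1, DESeq2 1.30.1, R 4.0.4 and the build mm10. The annotation, strand setting and treatment of multi-mapping reads are not given in the sources used here.

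Genes passed filterByExpr of edgeR 4.0.16 in R 4.3.3 (minimum count 10, minimum total 15). Groups were compared by edgeR's quasi-likelihood test with TMM factors and no covariate, adjusted over the 12966 genes left, at 0.05. There were 2 residual degrees of freedom, and the common dispersion was 0.0118. The test also draws on the variance of other genes, so p-values and intervals rest on more than these 2 degrees of freedom. The script was tested on simulated data. Within a group, counts varied beyond sampling noise (chi-square over degrees of freedom 9.06 in M0, 12.9 in M1). Lengths, overlaps and copies are from GENCODE vM21 transcripts (GRCm38), gene positions and promoters from RefSeq GRCm38.p6. Log2 fold changes are fitted M1 minus M0 values. Intervals use the standard error implied by the F statistic.

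The genes, lists and tests were chosen with earlier results of these data known. Every gene of the list is named. Each wider list gives up to 4 called genes with the largest change (no overlap between groups, 5 CPM or more in the higher one), plus up to 2 of the less common direction. Rsad2 is given as a neighbour. Other settings were relative log expression factors, upper-quartile factors, library totals, scaling without mitochondrial rows, DESeq2 1.42.0, limma-voom (limma 3.58.1), no filter, a filter of 1 CPM in 2 libraries with 50 counts in all, a replicate block and each library left out. The added copy rows, the crossed block and the left-out libraries for the mitochondrial share were chosen after seeing the data.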

Additional observations from a re-analysis of the deposited data

How the results depend on the processing

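With all 4 libraries, 12 mitochondrially encoded genes were called lower under each alternative run for them, with a median log2 fold change of -1.35 (library totals) to -1.09 (relative log expression factors and DESeq2). Leaving out single libraries gave 8 to 12 called lower and 0 higher, and a share of counts in M1 of 0.444 to 0.485 of that in M0. Over all genes, library totals gave 2026 higher and 4776 lower calls (29.8% higher, against 50.3%, median shift -0.252), and leaving out single libraries 1691 to 2965 higher and 1463 to 2854 lower, where a group left with 1 library is assumed to vary like the other group. Nuclear regulators numbered 5 higher and 5 lower with library totals and 3 to 8 higher and 1 to 2 lower without single libraries. The wider lists gave 11 higher and 25 lower with upper-quartile factors (median shift -0.104, 41% of all calls higher), 5 and 26 with library totals, and 5 to 15 and 4 to 11 without single libraries. No called gene named here changed sign in any setting, while 11 named genes that missed the threshold did (Tfam, Polrmt, Polg2, Twnk, Fastkd1, Fastkd2, Fastkd3, Tbrg4, Trmt10c, Mtpap and Supv3l1), none of them past the threshold with the other sign. The cause of these changes was not tested. With the replicate number as a block, 2957 genes were higher and 2975 lower, the nuclear calls of Lrpprc (adjusted p = 0.128) and Ppargc1b (0.0557) were lost, and 16 and 12 genes of the wider lists were called. The libraries share only a number: deviations of same-numbered libraries correlated at -0.113, and the crossed block gave 3648 higher and 3627 lower.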
